A study of Oryza sativa with 25 samples.

Results

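The transcripts described here are those that stood highest in rice callus at 2 and 4 days on regeneration medium, above both growing callus and callus at 6 and 8 days. They were chosen by the measured array values of the 5 callus groups. For each probe set, a group of array probes for 1 transcript, the lower of its 2-day and 4-day mean log2 levels was compared with the highest of its growing callus, 6-day and 8-day means. The 100 probe sets with the highest difference, called the score below, were kept among 19826 with a 2-day mean intensity of at least 0.5, out of 57194 probe sets without controls. The stress-inducible gene PBZ1 was left out by the rule. Of these 100 members, 65 matched 1 gene, 1 matched several and 34 matched none in the probe annotation. In 25 members the identifier ends in _s_at or _x_at, which marks probes that can detect related transcripts. The members covered 63 genes, of which 13 have a gene name and the others a locus number alone.

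Callus is a mass of cells that divides in culture without organs. On regeneration medium it can form shoots, a switch steered by cytokinin and auxin, plant hormones whose balance directs whether shoots or roots form. Plants answer a cytokinin signal by making type-A response regulators, which dampen the signal, and cytokinin oxidases, which break the hormone down. New organs also need entry into the cell cycle, DNA copying and repair, and assembly of spindle, cytoskeleton and wall.

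The study measured total RNA of rice (Oryza sativa) on 25 arrays in 8 groups of biological replicates. Growing callus had been made from seeds on MS medium over 3 weeks at 30 °C, and callus moved from there to regeneration medium was sampled after 2, 4, 6 and 8 days, with 3 arrays per group. Whole root (3 arrays) and the blade of leaf number 4 (young leaf, 4 arrays) came from greenhouse plants, root being taken at the growing stage of leaf number 4, and shoot (3 arrays) came from plants kept for 4 weeks at 30 °C in a growth chamber. No cultivar, transgene or treatment other than the medium is named in the labels. Medium, transfer and days in culture change together and cannot be told apart, and neither can organ, plant stage and growth place for shoot. In whole tissue, fewer cells of a type and less RNA per cell cannot be told apart either.

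Levels are the intensities as deposited, scaled so that the 75th percentile of each array is 1, and a level under the array medians of 0.220 to 0.355 is low. Replicate 2 carried an excess of poly(A) control RNA in growing callus and at 2 and 4 days per the labels, with summed control intensities of 2970 to 3068 against 4.59 to 33.9 on the other arrays. Had those 3 arrays been left out, 66 of the 100 members would have been chosen again. The score of all 100 stayed above 0, a description, since the members were chosen by that score. The summed leaf marker genes (5 genes for photosystem, light harvesting and carbon fixation proteins) stood at 537 to 730 in young leaf, 177 to 183 in shoot and 3.35 to 3.41 in root. The list of 15 root nutrient transport genes stood at 36.4 to 44.7 in root but at 46.6 to 84.4 in young leaf, so it did not set root apart. Late embryogenesis and dehydrin genes (8), taken as markers of callus and embryo, summed to 16.0 to 303 in growing callus, 194 to 856 at 2 to 8 days and 4.03 to 28.0 in the organs.

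Because the rule used the callus arrays, callus levels of the members are given as a description without a test. The score ran from 0.49 to 1.22 on the log2 scale with a median of 0.58, so most members stood less than 2-fold above their highest other callus group, and 4 passed that size. The closest other group was 6 days for 75 members, growing callus for 20 and 8 days for 5. At the threshold, LOC4345589, LOC4331251 and a probe set with no gene were just inside with a score of 0.489 each, and LOC4342019, LOC4333890 and another probe set with no gene just outside with 0.487 each. All 6 arrays of 2 and 4 days lay above the other 9 callus arrays in 70 members. Over all 37212 tested probe sets 1.39% did so, and the rule fixes this contrast.

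**Figure D1:**
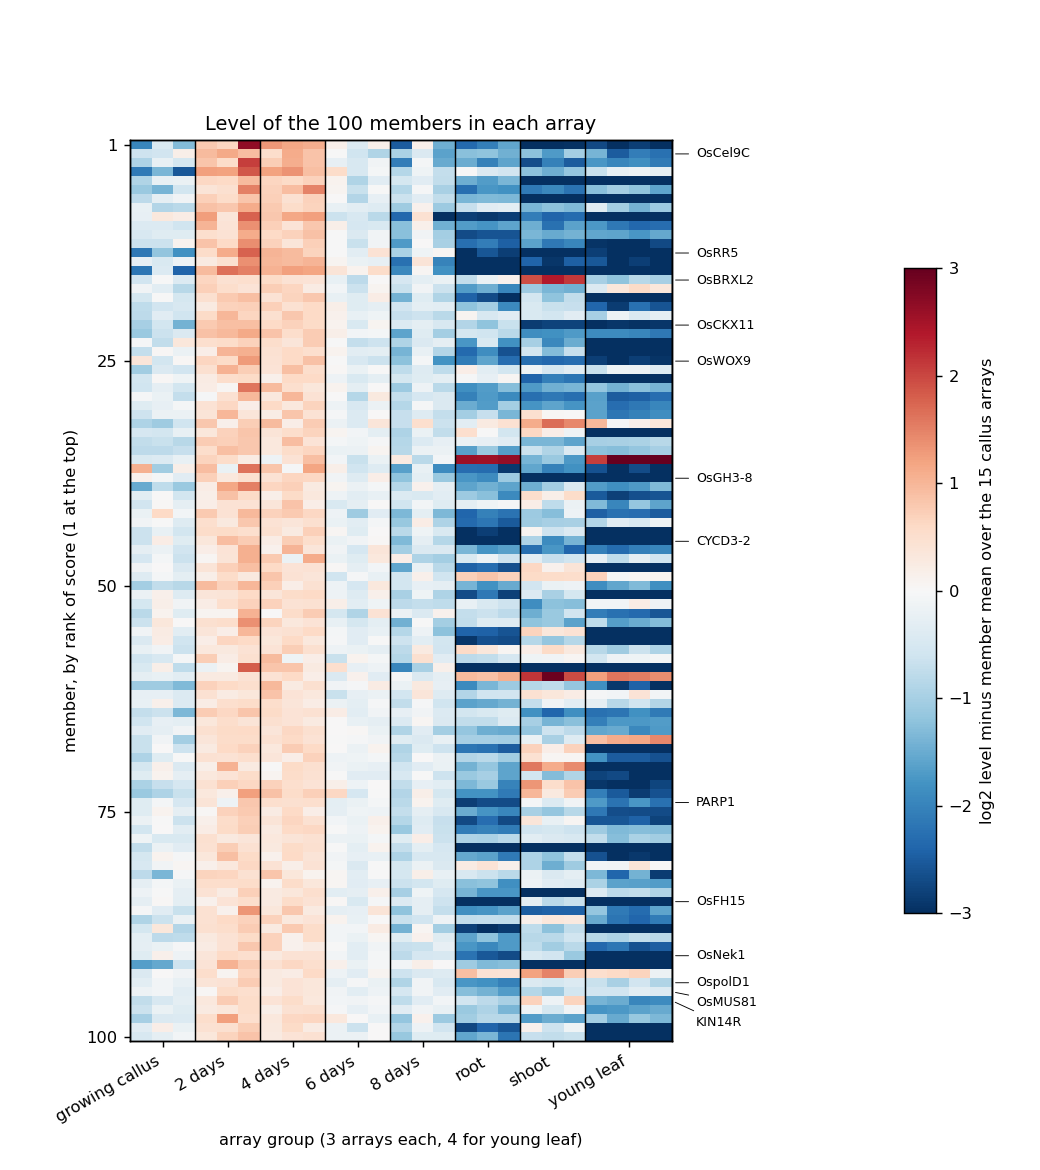
Heat map of the 100 members (rows, by rank of score) over the 25 arrays (columns, by group). Colour is the log2 level minus the member's mean over the 15 callus arrays, with values beyond 3 in either direction shown at the end colour. The 2-day and 4-day columns are red in nearly every row, and the organ columns range from far below callus to above it.

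The members were already high at 2 days and stayed close to that level at 4 days. The 2-day mean exceeded growing callus by a median of 0.91 on the log2 scale, from 0.53 to 3.44, and by at least 2-fold in 40 members. From 2 to 4 days the median difference was -0.07, from -0.43 to 0.29, with 27 members higher at 4 days and 73 lower. At 6 days the mean lay below 4 days by a median log2 of -0.63, and the 8-day mean by -1.0, with 50 members at least 2-fold below 4 days.

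Growing callus and 8 days were close for most members but not all. The 8-day mean lay below growing callus in 67 members and above it in 33, with a median log2 difference of -0.19. No share over all probe sets is given for this comparison, so whether the members differ from other probe sets was not tested. The 8-day mean stayed at least 2-fold above growing callus in 4 members, namely LOC4336662 (log2 1.45), OsRR5 (1.37), a probe set that matches several genes (1.3) and a probe set with no gene (1.11). It lay at least 2-fold below in LOC4336198 (-1.74), a probe set with no gene (-1.31) and LOC4344217 (-1.10). Here 1 array matters: 8-day replicate 2 was the highest of its group in 78 members, against 40.8% of all tested probe sets. Without it, 76 members lay below growing callus and 69 were at least 2-fold below 4 days. Without the 3 arrays with excess poly(A) controls, 56 lay below growing callus, with a median log2 difference of -0.07. The leaf marker sum moved the other way, from 2.33 to 2.70 in growing callus and 2.95 to 3.73 at 2 and 4 days to 10.3 to 18.5 at 6 and 8 days, and its part in the members' later levels was not tested.

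At 2 days, replicate 3 was the highest of its group in 67 members, against 26.3% of all tested probe sets. Without it, 79 of the 100 members would be chosen again. Of the members, 99 kept a score above 0 and the lowest score was -0.08. Since the members were chosen by this score, the 99 is a description and no test. At 6 days, replicate 2 was the lowest of its group in 74 members, against 42.4% of all tested probe sets. Without that array 73 of the 100 members would be chosen again, the fewest for any single callus array left out. The spread between replicates of the members, as a coefficient of variation, had a median of 12.8% at 4 days, 16.5% at 2 days, 20.1% in growing callus and 26.5% at 8 days.

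Hormone genes with a known role held 3 of the 13 names, 2 of 31 listed cytokinin genes and 1 of 60 listed auxin genes. OsRR5 (LOC4336439, chromosome 4), a type-A response regulator that dampens cytokinin signalling, measured 0.507, 1.02 and 0.652 in growing callus. It measured 3.46, 5.14 and 8.15 at 2 days, 4.80, 4.54 and 3.73 at 4 days, 2.35, 1.88 and 3.18 at 6 days, and 1.20, 2.15 and 2.44 at 8 days. All 6 early arrays were the highest, and every 8-day array was above every growing callus array. In root, shoot and young leaf it lay between 0.122 and 0.373, and no organ comparison was called.

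OsCKX11 (LOC4345764, chromosome 8), a cytokinin oxidase that degrades the hormone, measured 4.32, 5.86 and 3.17 in growing callus, 14.9, 16.1 and 16.0 at 2 days and 12.9, 13.8 and 12.7 at 4 days. Levels of 9.19, 6.28 and 9.08 followed at 6 days and 6.40, 7.02 and 6.10 at 8 days, so early and other callus arrays did not overlap. In organs it measured 4.63, 3.73 and 5.41 in root, 1.16, 1.23 and 1.22 in shoot and 0.712, 1.12, 1.07 and 1.11 in young leaf. Root was above shoot (shoot minus root, log2 -1.93, SE 0.196, limma adjusted p = 1.42e-08) and above young leaf (log2 -2.22, SE 0.183, adjusted p = 2.29e-10). Its other probe set had a score of 0.04, with means of 0.232 in growing callus, 0.312 at 2 days and 0.427 in root.

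OsGH3-8 (LOC4343785, chromosome 7), which joins the auxin indole-3-acetic acid to amino acids and so removes free auxin, measured 51.7, 45.5 and 37.6 in growing callus, 78.4, 59.0 and 66.5 at 2 days and 64.1, 74 and 72.7 at 4 days. It measured 44.5, 36.2 and 54.4 at 6 days and 20.7, 38.6 and 21.8 at 8 days. The early arrays lay above all others by a small margin. Among organs it was highest in root at 14.2, 12.8 and 22.4, against 3.99, 4.33 and 3.14 in shoot and 0.622 to 1.75 in young leaf. Every pair of organs differed, with log2 differences of -1.94 for shoot minus root (SE 0.291, limma adjusted p = 4.73e-06), -3.74 for young leaf minus root (SE 0.272, adjusted p = 2.48e-11) and 1.80 for shoot minus young leaf (SE 0.272, adjusted p = 4.34e-06).

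Of the growth regulators, OsWOX9 (LOC4324824, chromosome 1), also known as QHB, is a homeobox gene of the WOX family known from the quiescent centre of the rice root. It measured 2.00, 1.06 and 1.59 in growing callus, 2.44, 2.32 and 3.82 at 2 days, 2.11, 2.37 and 2.87 at 4 days, 1.54, 1.11 and 0.986 at 6 days and 0.644, 1.49 and 0.429 at 8 days. The lowest early array, 2.11, lay just above the highest growing callus array. Organ levels were 0.300 to 0.499 in root, 0.283 to 0.302 in shoot and 0.172 to 0.196 in young leaf, all below the callus arrays except that 8-day replicate 3 (0.429) lay within the root range, and no organ comparison was called.

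OsBRXL2 (LOC4330435, chromosome 2), a member of the BREVIS RADIX-like family, measured 0.635, 0.953 and 0.719 in growing callus, 1.52, 1.33 and 1.37 at 2 days, 1.45, 1.32 and 1.28 at 4 days, 0.824, 0.544 and 0.966 at 6 days and 0.669, 0.786 and 0.837 at 8 days. It was higher in shoot than in any callus array, at 3.74, 5.17 and 4.30, against 0.569, 0.834 and 1.05 in root and 0.404 to 0.529 in young leaf. Shoot exceeded root by log2 2.60 (SE 0.217, limma adjusted p = 6.13e-10) and young leaf by 3.26 (SE 0.203, adjusted p = 1.64e-12).

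The named cell division and cytoskeleton members were higher in shoot than in root and young leaf. Some of them stood near the cutoff of the rule. Under 19 other settings of the rule, CYCD3-2 was chosen again in 17, OsNek1 in 12, OsFH15 in 11 and KIN14R in 9. CYCD3-2 (LOC4346394, chromosome 9) is a D-type cyclin, the class that drives entry into the cell cycle. It measured 5.33, 9.72 and 6.49 in growing callus, 10.6, 16.0 and 14.3 at 2 days, 9.71, 13.9 and 12.1 at 4 days, 7.22, 7.75 and 8.59 at 6 days and 3.34, 6.89 and 4.57 at 8 days. Growing callus replicate 2 and 4-day replicate 1 overlapped. Shoot stood at 4.38, 2.25 and 3.18, root at 0.516, 0.605 and 0.248 and young leaf at 0.231 to 0.268, with shoot above root by log2 3.15 (SE 0.311, limma adjusted p = 9.28e-09) and above young leaf by 3.67 (SE 0.291, adjusted p = 1.23e-10).

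OsNek1 (LOC4333522, chromosome 3) belongs to the NIMA-related kinases, several of which act on microtubules. Its growing callus levels were 1.14, 1.64 and 1.32, its 2-day levels 1.89, 2.22 and 2.11, its 4-day levels 1.80, 1.98 and 1.99, its 6-day levels 1.38, 1.17 and 1.40 and its 8-day levels 0.842, 1.03 and 1.05. The 8-day arrays were all below growing callus. Shoot, at 1.06, 0.982 and 0.669, exceeded root (0.205 to 0.297) by log2 2.15 (SE 0.165, limma adjusted p = 1.41e-10) and young leaf (0.105 to 0.156) by 2.68 (SE 0.154, adjusted p = 3.98e-13); a larger pseudocount, 50% of the median of all values in place of 10%, brought the latter to 2.02.

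KIN14R (LOC4352796, chromosome 12), a kinesin, a motor that moves along microtubules, measured 0.649, 0.785 and 0.894 in growing callus, 1.38, 1.88 and 1.63 at 2 days, 1.48, 1.61 and 1.37 at 4 days, 1.04, 1.02 and 1.07 at 6 days and 0.637, 0.855 and 1.03 at 8 days. Shoot, at 1.80, 0.978 and 1.75, reached the early callus level in 2 of 3 arrays. It exceeded root (0.549 to 0.734) by log2 1.36 (SE 0.217, limma adjusted p = 1.1e-05) and young leaf (0.261 to 0.403) by 2.16 (SE 0.203, adjusted p = 2.5e-09).

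OsFH15 (LOC4347588, chromosome 9), a formin-like protein of the family that nucleates actin filaments, measured 4.39, 5.39 and 4.28 in growing callus, 5.76, 6.99 and 7.68 at 2 days, 6.42, 7.73 and 7.14 at 4 days, 5.41, 3.81 and 5.13 at 6 days and 3.96, 4.39 and 3.40 at 8 days. The margin between early and other callus arrays was narrow. Shoot, at 4.29, 2.98 and 3.30, exceeded root (0.344 to 0.502) by log2 3.39 (SE 0.176, limma adjusted p = 1.65e-13) and young leaf (0.299 to 0.377) by 3.38 (SE 0.165, adjusted p = 1.94e-14).

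The 3 named DNA copying and repair members each had their lowest organ mean in root. Their membership depended on the settings of the rule. Under 19 other settings, such as 1 array left out, OspolD1 was chosen again in 11, PARP1 in 13 and OsMUS81 in 7. OspolD1 (LOC4349968, chromosome 11), the catalytic subunit of the replicative DNA polymerase delta, measured 2.16, 2.53 and 2.28 in growing callus, 3.50, 3.60 and 4.56 at 2 days, 3.23, 3.55 and 3.39 at 4 days, 2.23, 2.63 and 2.33 at 6 days and 1.42, 2.50 and 1.92 at 8 days. Its probe set can detect related transcripts, since the identifier ends in _s_at. Shoot (1.85 to 2.00) was above root (0.633 to 0.785) by log2 1.54 (SE 0.167, limma adjusted p = 4.08e-08), and young leaf (1.35 to 1.78) was above root by 1.16 (SE 0.157, adjusted p = 8.24e-07).

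PARP1 (LOC4343013, chromosome 7), an enzyme that builds poly(ADP-ribose) chains at DNA breaks, measured 2.38, 2.97 and 2.17 in growing callus, 4.04, 2.76 and 5.47 at 2 days, 4.43, 4.29 and 4.39 at 4 days, 2.53, 2.71 and 2.98 at 6 days and 1.74, 3.34 and 2.41 at 8 days. Its 2-day replicate 2 lay within the range of the other callus arrays. Shoot measured 2.96, 2.33 and 2.89 and exceeded root (0.412 to 0.460) by log2 2.91 (SE 0.219, limma adjusted p = 1.03e-10) and young leaf (0.634 to 0.932) by 1.83 (SE 0.205, adjusted p = 4.49e-08). Young leaf was called above root by 1.08 (SE 0.205, adjusted p = 7.92e-05), and this fell under the 2-fold limit with the larger pseudocount (0.90), without normalization between arrays (0.75) and without young leaf replicate 1 (0.99).

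OsMUS81 (LOC4325837, chromosome 1), the subunit of an endonuclease that cuts branched DNA during recombination, measured 1.63, 1.71 and 1.44 in growing callus, 1.86, 2.66 and 2.59 at 2 days, 2.07, 2.42 and 2.30 at 4 days, 1.69, 1.46 and 1.64 at 6 days and 1.27, 1.69 and 1.43 at 8 days. Among organs its mean was highest in young leaf, at 1.21 to 1.45 per array, against 0.545 to 0.726 in root and 0.830 to 1.23 in shoot. Young leaf exceeded root by log2 1.13 (SE 0.154, limma adjusted p = 8.66e-07), a call that fell under the 2-fold limit without normalization (0.99) and without root replicate 3 (0.98).

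OsCel9C (LOC4338100, chromosome 5), an endoglucanase-type cell wall enzyme, had the highest score of the named members, at rank 2. It measured 0.438, 0.458 and 0.781 in growing callus, 1.35, 1.56 and 1.34 at 2 days, 1.01, 1.54 and 1.27 at 4 days, 0.688, 0.445 and 0.358 at 6 days and 0.345, 0.508 and 0.209 at 8 days. Organ levels were 0.237 to 0.282 in root, 0.193 to 0.329 in shoot and 0.0992 to 0.248 in young leaf, and no organ comparison was called. Shoot minus young leaf was log2 0.90, and it passed the 2-fold limit without shoot replicate 2 (1.13) or without young leaf replicate 1 (1.04).

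**Figure D2:**
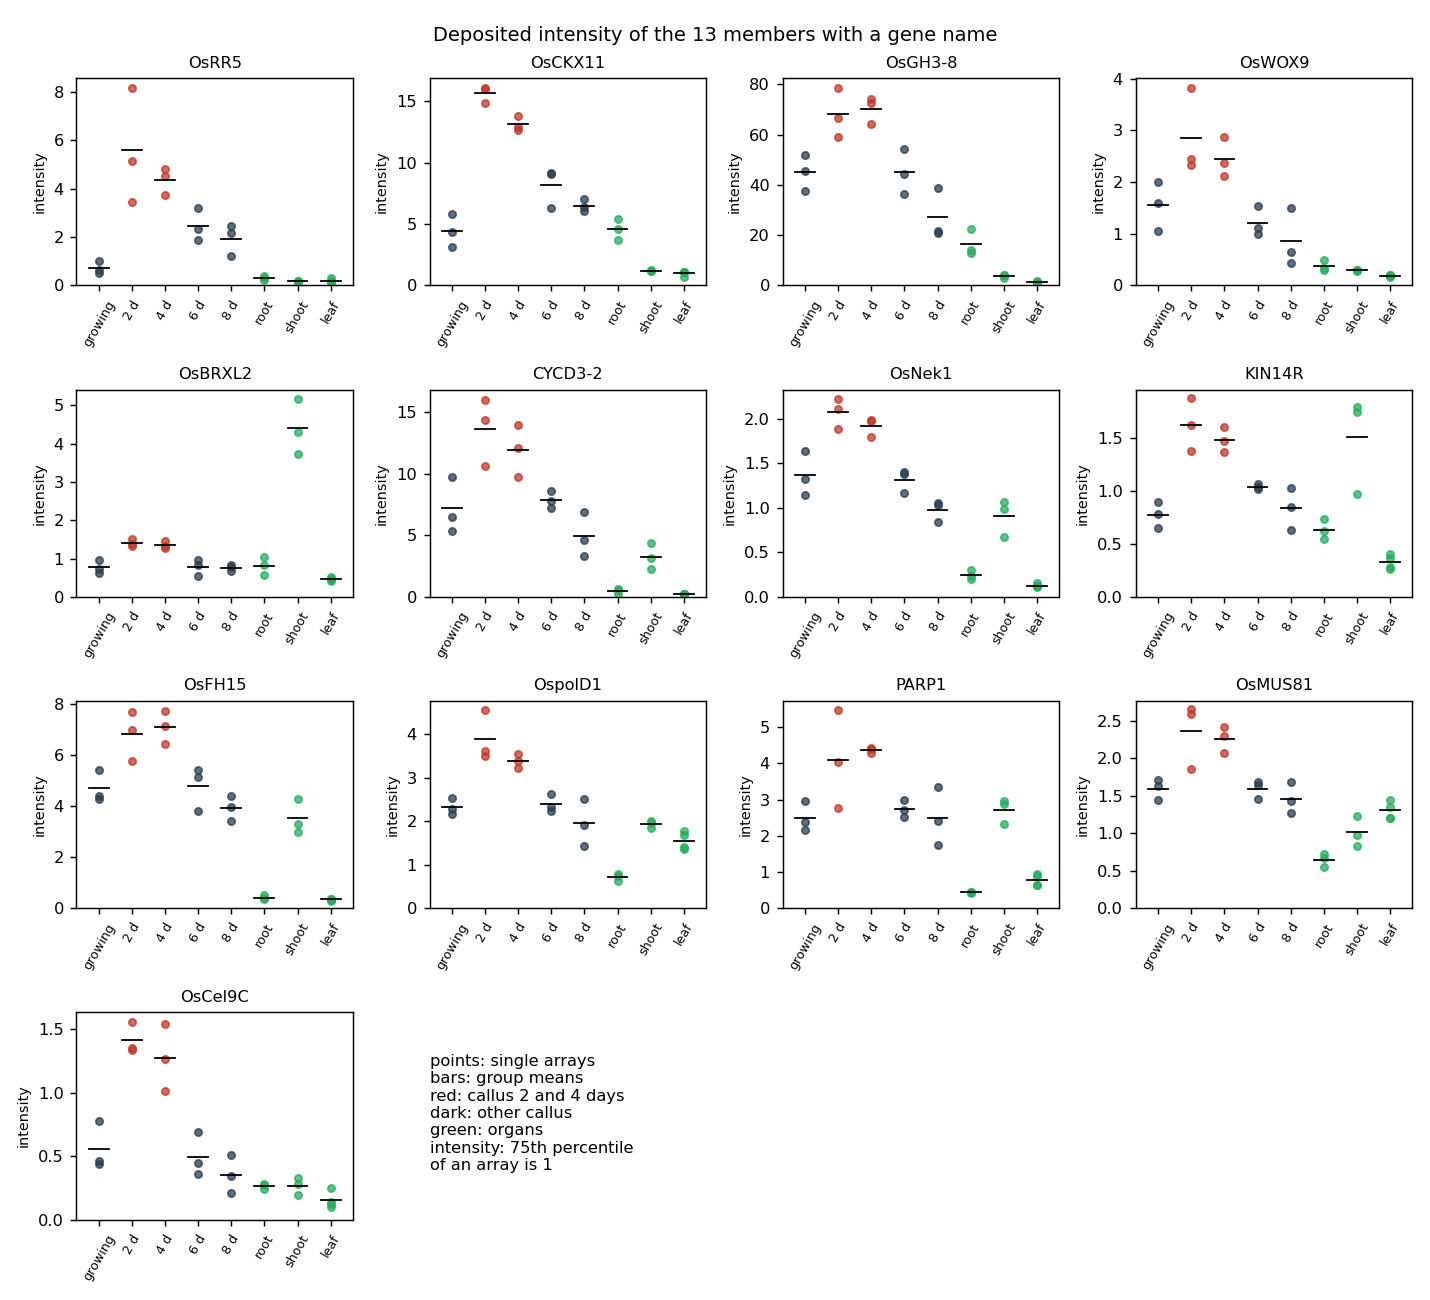
Deposited intensity of the 13 named members in every array (points) with group means (bars), for growing callus, callus at 2, 4, 6 and 8 days, root, shoot and young leaf. CYCD3-2, OsNek1, OsFH15, PARP1 and KIN14R are higher in shoot than in root and young leaf, although the shoot means of CYCD3-2, OsNek1 and OsFH15 lie below all 5 callus means, OsCKX11 and OsGH3-8 are highest in root among organs, and OsRR5, OsWOX9 and OsCel9C have lower means in all 3 organs than in any callus group.

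Most members of highest score have only a locus number or a probe set identifier, so no role is given for them. LOC4332316 (chromosome 3), with the highest score, measured 0.462, 1.36 and 0.740 in growing callus, 3.27, 2.95 and 12.0 at 2 days, 4.64, 4.25 and 4.03 at 4 days, 2.08, 1.41 and 2.10 at 6 days and 0.308, 2.10 and 0.663 at 8 days. Its 2-day mean rests largely on replicate 3. LOC4339174 (chromosome 5), at rank 3, was also highest in that array, at 1.10, 0.895 and 2.63 at 2 days and 1.02, 1.32 and 1.11 at 4 days, against 0.302 to 0.512 in growing callus.

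LOC4336662 (chromosome 4), at rank 4, measured 0.397, 0.681 and 0.290 in growing callus, 4.28, 4.2 and 6.66 at 2 days, 4.23, 4.64 and 3.43 at 4 days, 2.68, 1.29 and 1.74 at 6 days and 1.0, 1.66 and 1.10 at 8 days. All its later arrays stayed above growing callus. LOC4351732 (chromosome 12), at rank 15, measured 5.07, 17.3 and 4.33 in growing callus and 44.7, 72.7 and 65.7 at 2 days, with 47.3, 54.0 and 52.5 at 4 days and a mean of 0.305 to 0.342 in the organs. LOC4336198, at rank 9, measured 0.597, 4.36 and 0.373 at 8 days, so its 8-day level differs with replicate 2. The remaining members of the 10 highest scores were LOC4332595, LOC4351470 and 3 probe sets with no gene, at ranks 5, 6 and 10.

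Organ arrays were not used by the rule, so the members were tested there. The question is whether transcripts high in early regenerating callus differ between shoot, root and leaf. A member was called where its limma adjusted p over all 37212 tested probe sets was under 0.05 and its fold at least 2. All 100 members passed the filter on low values, which counts callus arrays as well as organ arrays. Members chosen as high in early regenerating callus could pass it there, so passing does not show that they were above the array medians in organs. The probe set at rank 22, for example, was called higher in root than in young leaf with low means, 0.281 and 0.0951. Shoot was the organ of most calls: 45 members were higher in shoot than in root, against 15.5% of all tested probe sets, and 50 were higher in shoot than in young leaf, against 16.5%. By contrast 10 were higher in root than in shoot (13.5% of all), 8 higher in young leaf than in root (15.5%), 30 higher in root than in young leaf (16.6%) and 6 higher in young leaf than in shoot (15%).

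The members were chosen among transcripts with a 2-day mean of at least 0.5, and such transcripts are called more often in shoot. Among the 19827 tested probe sets above that level, 20.8% were higher in shoot than in root, 11.2% higher in root than in shoot, 23.2% higher in shoot than in young leaf and 14.3% higher in young leaf than in shoot. Of these probe sets, 16.6% were higher in young leaf than in root and 18.7% higher in root than in young leaf. The median log2 difference of the members was 0.84 for shoot minus root (0.05 over all tested), -0.40 for young leaf minus root (-0.02) and 0.96 for shoot minus young leaf (-0.05). The count of members higher in root than in young leaf fell to 19 with the larger pseudocount, and that of members higher in young leaf than in root was 5 without normalization and 17 by adjusted p alone. Members higher in shoot than in root numbered 37 without normalization and 38 with the larger pseudocount. Those higher in shoot than in young leaf numbered 49 and 44.

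**Figure D3:**
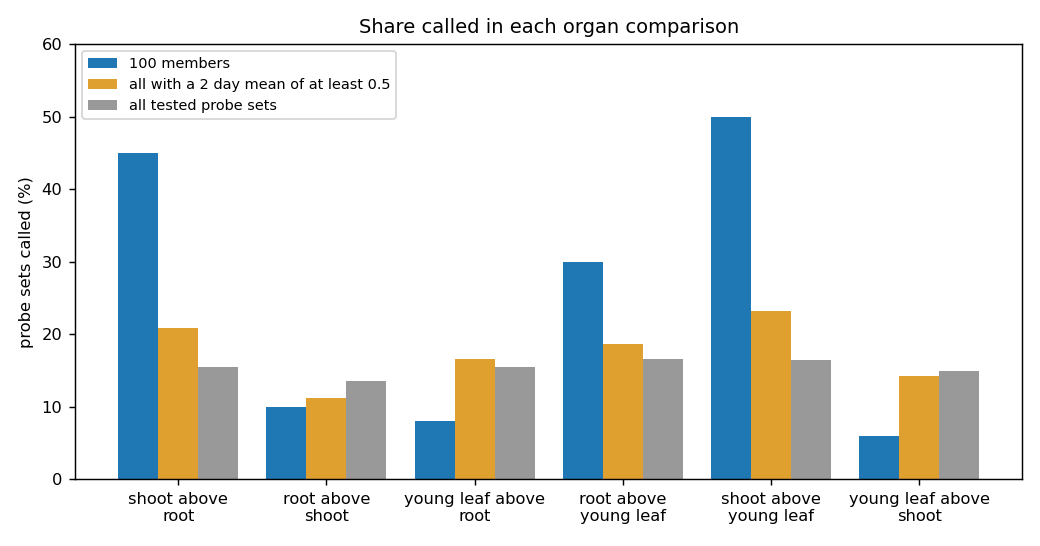
Percentage of probe sets called in each of 6 organ comparisons, for the 100 members, for all tested probe sets with a 2-day mean of at least 0.5 and for all 37212 tested. Member bars stand at 45% for shoot above root and 50% for shoot above young leaf, against 20.8% and 23.2% of the probe sets with that 2-day mean.

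By combinations, 36 members were higher in shoot than in both other organs, against 8.01% of all tested probe sets and 10.9% of those with a 2-day mean of at least 0.5. Root was above both in 7 members (8.17% of all), young leaf above both in 2 (9.94%) and young leaf below both in 24 (7.90%). In 28 members no organ comparison was called, against 51.4% of all tested and 44.5% of those with that 2-day mean. Some members were low in organs: the mean was under the array medians in root for 32, in shoot for 20, in young leaf for 49 and in all 3 organs for 13. A median is the middle value of all probe sets on an array, so these counts do not show the members as lower than other probe sets. The leaf marker sum was higher in young leaf than in shoot, and its part in the differences between them was not tested.

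**Figure D4:**
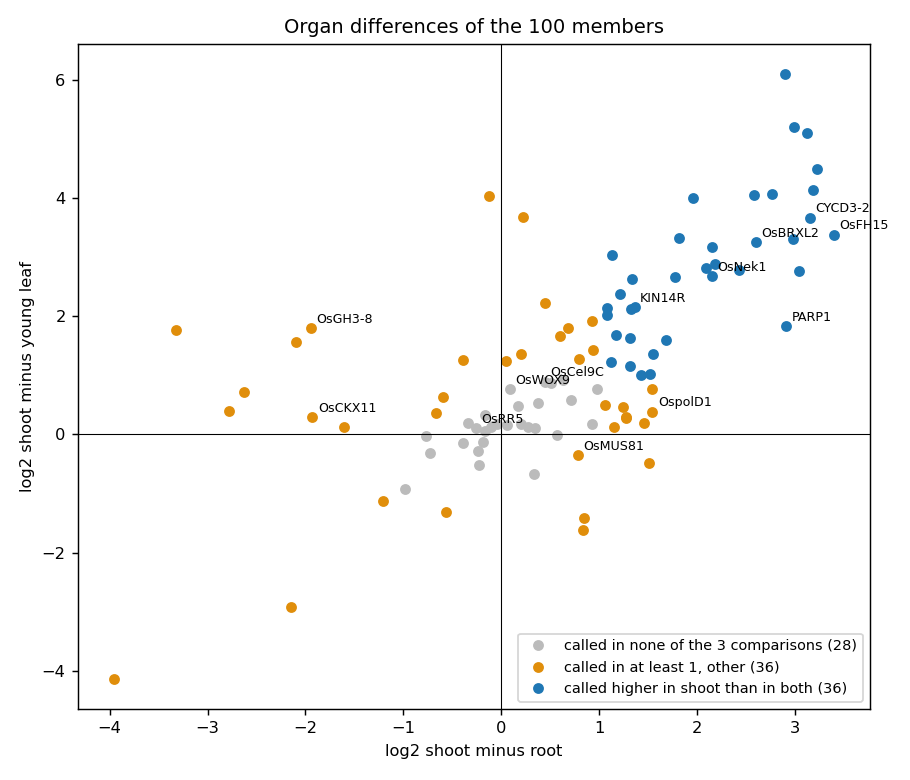
Each point is 1 of the 100 members, with its log2 difference shoot minus root on the horizontal axis and shoot minus young leaf on the vertical axis. Blue points (36) were called higher in shoot than in both other organs, orange points were called in at least 1 comparison, and grey points (28) in none. OsFH15, CYCD3-2, OsBRXL2 and PARP1 lie in the upper right, and OsCKX11 and OsGH3-8 on the left.

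The largest excess of shoot over young leaf was that of LOC4342391 (chromosome 7), which measured 10.6, 7.53 and 10.5 in shoot, 1.42, 1.36 and 1.14 in root and 0.162, 0.0847, 0.168 and 0.122 in young leaf. In callus it ran from 4.10 to 6.55 in growing callus and from 7.87 to 11.1 at 2 and 4 days, so shoot and early callus overlapped. The young leaf level is low, so the size depends on the pseudocount: log2 6.11 for shoot minus young leaf (SE 0.182, limma adjusted p = 4.96e-18), and 5.31 with the larger pseudocount. LOC4332677 (5.20), LOC4347846 (5.11, or 4.05 with the larger pseudocount), LOC4346975 (4.49, or 3.79) and LOC4347183 (4.15) followed. The last 3 were also among the largest excesses of shoot over root, at 3.12, 3.22 and 3.18, beside OsFH15 and CYCD3-2.

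In some members root or young leaf was called above another organ. LOC4332595 (chromosome 3), at rank 7, measured 8.97, 12.9 and 14.6 in growing callus, 25.8, 23.0 and 28.0 at 2 days, 25.8, 21.3 and 25.0 at 4 days, 15.8, 8.46 and 13.2 at 6 days and 10, 12.3 and 9.33 at 8 days. Root stood at 5.99, 6.21 and 6.10, shoot at 0.654, 1.39 and 0.988 and young leaf at 0.417 to 0.758, with log2 differences of -2.62 for shoot minus root and -3.35 for young leaf minus root. The probe set at rank 5, with no gene, showed the same order, at -2.79 and -3.18. The member at rank 92, whose probes match several genes, measured 7.53, 6.32 and 6.52 in root, and its young leaf minus root difference was -5.10 (-4.48 with the larger pseudocount).

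LOC4343997 (chromosome 7) measured 0.589, 0.542 and 0.429 at 2 days and stood above these values in root at 2.26, 2.24 and 2.37, and in young leaf at 1.61, 3.27, 3.76 and 3.32. In shoot it measured 0.119, 0.152 and 0.0894, and shoot minus root was log2 -3.95 and shoot minus young leaf -4.14 (-3.25 and -3.43 with the larger pseudocount). Further root excesses over young leaf were LOC4341783 (-4.17), LOC4344575 (-3.67) and LOC4332081 (-3.47), with -3.52, -2.80 and -2.72 under the larger pseudocount. The largest excess of young leaf over root was that of a probe set with no gene (2.45), then LOC4334324 (2.25), LOC4343766 (1.98) and LOC4338271 (1.26). LOC4335533 was higher in root and in young leaf than in shoot (-2.15 and -2.92). Taking callus and organs together, 14 members reached in at least 1 organ the lower of their 2-day and 4-day means, OsBRXL2, KIN14R, LOC4342391, LOC4343997, LOC4347846 and LOC9272509 among them. This count is a description, since the rule chose high 2-day and 4-day means and no share over all probe sets is given.

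Other probe sets for the members' genes give a further view of these genes, scored on the same callus arrays that the rule used. There were 15 such probe sets from 11 genes, and 12 had a score above 0, with a median of 0.22. Among all 57094 probe sets that are not members, 20.5% had a score above 0 and the median was -0.16. The difference is a description and no independent test, since genes and arrays are those of the rule. Some of these probe sets missed membership only by a cutoff. A probe set of LOC4332441 scored 0.671 with a 2-day mean of 0.446, under the minimum of 0.5. Another, of LOC4343997, stood at rank 118. Member genes lay on every chromosome but chromosome 10, with 11 on chromosome 3. Within 10 genes of each other stood LOC4330430 and OsBRXL2 (5 genes apart), LOC4332677 and LOC9269723 (4) and OspolD1 and LOC4349971 (6). No share over all genes is given for chromosomes or neighbours, so no clustering is read from these positions.

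Other genes of the members' pathways were tested in the callus comparisons, the members left out. Cytokinin genes were called higher at 2 and 4 days than in growing callus in 5 of 26 tested and lower in 0, against 1.90% and 2.80% of all tested probe sets. At an unadjusted p under 0.05, 9 were higher and 7 lower, against 15.9% and 12.9% of all tested. OsRR6, a type-A response regulator like OsRR5, rose from 0.960 ± 0.463 to 8.68 ± 1.77 at 2 days, then stood at 7.51, 7.41 and 5.44 at 4, 6 and 8 days (SD, n = 3; log2 3.15, SE 0.224, limma adjusted p = 3.66e-09). OsCKX5, a cytokinin oxidase like OsCKX11, rose by log2 3.11 (adjusted p = 5.89e-08) and OsRR4, another type-A regulator, by 1.47 (adjusted p = 5.46e-06). From 2 and 4 days to 6 and 8 days, 1 of the 26 rose and 1 fell, against 2.99% and 0.285% of all tested, where 14.3% were higher and 17.5% lower at an unadjusted p under 0.05. LOGL7 (log2 1.85) rose and LOGL3 (-1.19) fell, both named for the LOG family of cytokinin-activating enzymes.

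Of 43 other mitosis and cytokinesis genes, 2 were called higher at 2 and 4 days and 0 lower, against 1.90% and 2.80% of all tested (24 and 3 at an unadjusted p under 0.05, against 15.9% and 12.9%), with a median log2 difference of 0.39 against 0.02 over all tested. They were KRP5 (1.37), named as an inhibitor of cyclin-dependent kinases, and the B-type cyclin CYCB1-1 (1.04). The count was 1 without growing callus replicate 1, 2-day replicate 2 or 4-day replicate 2, 5 without growing callus replicate 2 or 3 or 2-day replicate 1, and 4 without 4-day replicate 1. At 6 and 8 days 2 rose, KRP1 (1.07) and the kinesin KIN4A (1.04), and 0 fell, against 2.99% and 0.285% (6 and 25 at an unadjusted p under 0.05, against 14.3% and 17.5%), with a median of -0.36 against -0.05. The 2 became 1 without 2-day replicate 1, 6-day replicate 2 or 8-day replicate 1 or 3, and 1 gene fell without 2-day replicate 1, 4-day replicate 1, 6-day replicate 2 or 8-day replicate 3. In organs 26 of the 43 were higher in shoot than in root and 36 higher in shoot than in young leaf, against 15.5% and 16.5% of all tested probe sets, with 2 lower in each. In young leaf 3 were higher and 27 lower than in root, against 15.5% and 16.6%.

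Of 34 other DNA replication genes, 0 were called in either callus comparison by limma. At an unadjusted p under 0.05, 12 were higher and 1 lower at 2 and 4 days, against 15.9% and 12.9% of all tested probe sets. At 6 and 8 days 0 were higher and 24 lower at that p, against 14.3% and 17.5%. Their median log2 differences were 0.26 and -0.42, against 0.02 and -0.05 over all tested. In organs 14 were higher in shoot than in root and 19 higher in shoot than in young leaf, against 15.5% and 16.5% of all tested, with 0 lower in either. In young leaf 1 was higher and 13 lower than in root, against 15.5% and 16.6%.

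Auxin genes moved in both directions. Of 58 tested, 3 rose and 5 fell at 2 and 4 days, against 1.90% and 2.80% of all tested probe sets. At an unadjusted p under 0.05, 10 were higher and 20 lower, against 15.9% and 12.9%. Without the 3 arrays with excess poly(A) controls 8 fell. OsGH3-1, a relative of OsGH3-8, rose by log2 1.94 (limma adjusted p = 3.62e-05) and the Aux/IAA repressor gene IAA7 by 1.57 (adjusted p = 6.71e-05), with IAA2 (1.53) the other gene that rose. IAA9 fell by 1.52, the auxin response factor ARF3 fell by 1.15 and OsGH3-2 fell by 1.40, the latter from 64.8 ± 2.82 to 24.9 ± 5.47 at 2 days (SD, n = 3). At 6 and 8 days OsYUCCA1, named for the enzyme family that makes auxin, was the 1 gene that rose (1.25), and 4 fell, with IAA26 (-1.62), IAA20 (-1.23) and IAA9 (-1.20) among them.

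Of 35 other organ patterning regulators, 9 rose and 2 fell at 2 and 4 days, against 1.90% and 2.80% of all tested probe sets. At an unadjusted p under 0.05, 16 were higher and 5 lower, against 15.9% and 12.9%. The YABBY genes OsYAB7 (log2 2.92, limma adjusted p = 1.42e-09) and OsYAB2 (2.10) and the growth-regulating factor OsGRF10 (2.02) rose. OsWOX6 (-1.29) and OsWOX7 (-1.13), of the same family as OsWOX9, fell, and the count of falls was 1 without growing callus replicate 2 or without the 3 arrays with excess poly(A) controls. At 6 and 8 days 8 rose and 0 fell, against 2.99% and 0.285% of all tested (18 and 4 at an unadjusted p under 0.05, against 14.3% and 17.5%), with AS2 (1.69), PCF8 (1.5) and OsYAB2 (1.46) among those that rose. The 8 became 5 with the larger pseudocount, and 1 gene fell without 2-day replicate 1 or 2, 4-day replicate 3, 6-day replicate 1 or 3 or 8-day replicate 2.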

How the data were processed

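The authors deposited 1 intensity value per probe set and array on a linear scale, with the 75th percentile at 1. GCOS 1.3 is named per the submitters' processing notes, and the background and summary steps are not given in the sources used here. Probes were named through the platform annotation and a RefSeq gene table. The number of arrays per group limits the precision.

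Control probe sets (187) were left out, and log2(intensity + 0.0274), a pseudocount of 10% of the overall median, was quantile normalized because array medians differed by a ratio of 1.61. The score used values without that normalization. The 37212 probe sets that exceeded the median of an array in 3 or more arrays were fitted with limma 3.58.1 in R 4.3.3. The fit took all 25 arrays and 1 mean for each group. Only the limma step, for shoot minus root, was checked on simulated data. That simulation had independent noise in each array and left out the normalization and the callus comparisons. Adjusted p-values are Benjamini-Hochberg over all tested. The fit had 17 residual and 5.40 prior degrees of freedom.

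The members and gene lists were chosen with earlier results of these data known. Of 24 lists of gene symbols, 5 held a member, and only these were tested. Named are all members with a gene name, the 10 of highest score, 3 on each side of the threshold, the 5 largest organ differences in each direction and list genes of smallest adjusted p. The comparison with probe sets of at least 0.5 at 2 days was added after the data were seen, as were 2 sets of left-out arrays. Promoters and proteins were not used here.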

Additional observations from a re-analysis of the deposited data

Results flagged for a closer look

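Both results below have 1 young leaf array far from the other 3, by Dixon's gap test. The test was run on 38 members in that group of 4 arrays, and flags of this kind also arise by chance. OsCKX11 in young leaf measured 0.712 in replicate 1, against 1.07, 1.11 and 1.12 in the others, with a gap of 0.882 of the range. The member at rank 92, which matches several genes, in young leaf measured 0.307 in replicate 1, against 0.137, 0.153 and 0.165, with a gap of 0.834 of the range. Both members are called higher in root than in young leaf. The 2 flags fall on the same array, in intensities as deposited. Its median was 0.330, against 0.257 to 0.283 in the other young leaf arrays, so 0.307 is a low level there.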

How the results depend on the processing

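With the larger pseudocount 93 of the 100 members would be chosen again, with quantile normalization 87 and with group medians in place of means 65. The count was 66 without the 3 arrays with excess poly(A) controls and 73 to 98 without 1 callus array. In all 19 settings 28 members were kept. Of the named members, OsCel9C, OsRR5 and OsBRXL2 were kept in all 19, OsCKX11 in 18, and CYCD3-2, OsWOX9 and OsGH3-8 in 17. PARP1 was kept in 13, OsNek1 in 12, OsFH15 and OspolD1 in 11, KIN14R in 9 and OsMUS81 in 7. Members higher in shoot than in root numbered 37 without normalization, 38 with the larger pseudocount and 55 by adjusted p alone. Those higher in shoot than in young leaf numbered 49, 44 and 62, and those higher in root than in shoot 14, 9 and 15. No share over all probe sets is given for these settings. Members higher in young leaf than in root numbered 17 by adjusted p alone and 5 without normalization, and members higher in root than in young leaf 19 with the larger pseudocount. Without 1 array at a time, 41 to 48 members were higher in shoot than in root, 49 to 51 higher in shoot than in young leaf, 27 to 33 higher in root than in young leaf, 7 to 10 higher in young leaf than in root, 10 to 11 higher in root than in shoot and 5 to 7 higher in young leaf than in shoot. Of 3420 recomputed organ values of named members 0 reversed, 8 lost their call and 22 gained one.

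Mitosis genes higher at 2 and 4 days numbered 1 to 5 without 1 array, those higher at 6 and 8 days 1 to 2, and 0 with the larger pseudocount, and those lower at 6 and 8 days 0 to 1, and 1 without normalization. Auxin genes lower at 2 and 4 days numbered 8 without the poly(A) arrays. Patterning genes lower at 2 and 4 days numbered 1 without the poly(A) arrays and 1 to 2 without 1 array, those higher at 6 and 8 days 5 with the larger pseudocount, and those lower at 6 and 8 days 1 without normalization and 0 to 1 without 1 array. The cause of these changes was not tested.

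Same-numbered callus samples deviated together in some pairs, with a median r of 0.077 over 30 pairs (-0.277 to 0.39, 13 above 0.1). For different numbers the median was -0.045 over 60 pairs (-0.359 to 0.352, 10 above 0.1). The main fit did not take the number as a pairing, and shared handling of same-numbered callus samples was not tested. For the gene lists in callus no count with the number as a block is given. With the replicate number as a block, 45 members were higher in shoot than in root, 10 higher in root than in shoot, 49 higher in shoot than in young leaf, 6 higher in young leaf than in shoot, 27 higher in root than in young leaf and 10 higher in young leaf than in root.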
